A study of Mus musculus with 2 samples.

Results

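The chromatin regions described here are the peaks assigned to Zfp genes, the large set of mouse genes named after zinc finger proteins. The assay was ATAC-seq, which reads where a transposase, Tn5, can reach the DNA of the nucleus. The material was cardiac progenitor cells (CPCs), made from mouse embryonic stem cells and taken on day 5 of differentiation. The stem cell line, E14 Tg(Nkx2-5-EmGFP), labelled as strain C57BL/6, carries a green fluorescent reporter of the cardiac factor gene Nkx2-5, and no knockdown was among the samples. The 2 samples form 1 group and share 1 list of peaks called in both, so there was no comparison between conditions. Members were the distinct intervals whose assigned gene symbol is Zfp followed by digits alone, leaving out Zfp36 and Zfp42. There were 499 such peaks at 314 genes, of 26232 distinct peaks at 15351 genes, or 1.90% of the peaks. One of these intervals stood on 2 lines of the list and was counted once.

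The list has no score, no read count and no value for a single replicate, so depth is unknown and no value below has a replicate error or a test. Many shares are given with 95% Wilson intervals, which cover counting error over peaks or genes and not the spread between differentiations. Other shares, among them most of those of motifs, have no interval, so their differences were not set against counting error. A peak was placed by the deposited signed distance of its midpoint from the transcription start site (TSS) of its gene, negative when upstream. Peaks called in a single replicate are not in the list, so a gene without a peak is not thereby shown to be closed.

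Zfp proteins mostly carry C2H2 zinc fingers, small folds held by a zinc ion through 2 cysteines and 2 histidines, and tandem fingers read DNA bases in series. Many also carry a KRAB box near the amino end, which binds the corepressor Trim28 and through it recruits histone methylation and heterochromatin proteins. KRAB zinc finger genes arose by repeated duplication, stand in clusters on a few chromosomes, and are best known for silencing retroelements and protecting imprints in early embryos. Other Zfp genes, without a KRAB box, encode developmental transcription factors or RNA-binding proteins.

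The label was checked on the proteins of GENCODE vM1, which has 338 protein coding genes with such a name. A C2H2 match, a spacing of cysteines and histidines typical of the fold, was present in 324 of these genes and missing in 14, and the median gene had 10 matches, with 36 in the highest. A KRAB match was present in 128 genes (37.9%). The pattern was strict and missed known KRAB proteins such as those of Zfp57, Zfp708 and Zfp932, so the genes without a match are not all without the domain. The annotation held 287 of the 314 peak genes by name and lacked the other 27.

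The promoters that carried a peak ranged widely in CpG content, and the extremes are shown first because CpG content differed between Zfp promoters with and without a peak. Each line gives 120 bases of mm9 around the midpoint of the peak that overlapped the promoter, 5′ to 3′ on the strand of the gene, with each CpG in capitals. The first 3 belong to the promoters with the highest ratio of observed to expected CpG within 500 bp of the 5′-most annotated protein coding TSS, and the last 3 to those with the lowest.
Zfp746: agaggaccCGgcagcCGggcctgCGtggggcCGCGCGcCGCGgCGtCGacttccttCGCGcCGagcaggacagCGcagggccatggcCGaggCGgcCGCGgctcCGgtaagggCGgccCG
Zfp318: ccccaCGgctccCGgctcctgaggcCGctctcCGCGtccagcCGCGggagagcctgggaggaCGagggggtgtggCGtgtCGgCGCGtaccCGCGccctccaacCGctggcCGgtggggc
Zfp362: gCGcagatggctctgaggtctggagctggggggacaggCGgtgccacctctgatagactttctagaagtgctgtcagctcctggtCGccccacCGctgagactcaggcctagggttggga
Zfp46: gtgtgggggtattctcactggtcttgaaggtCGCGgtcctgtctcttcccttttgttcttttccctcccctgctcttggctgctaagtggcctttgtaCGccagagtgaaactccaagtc
Zfp872: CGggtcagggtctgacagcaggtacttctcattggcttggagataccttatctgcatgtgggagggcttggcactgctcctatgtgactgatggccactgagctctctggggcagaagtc
Zfp345: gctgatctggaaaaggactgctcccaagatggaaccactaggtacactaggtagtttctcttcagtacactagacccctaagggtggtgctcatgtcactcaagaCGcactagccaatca

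These stretches lie at chr6:48036300-48036419 on the minus strand for Zfp746, chr17:46520548-46520667 on the plus strand for Zfp318, chr4:128484134-128484253 on the minus strand for Zfp362, chr4:135841735-135841854 on the plus strand for Zfp46, chr9:22000978-22001097 on the plus strand for Zfp872 and chr2:150310887-150311006 on the minus strand for Zfp345. They hold 21 CpGs for Zfp746 and 16 for Zfp318, against 3 for Zfp46 and a single CpG each for Zfp872 and Zfp345. The stretch of Zfp362 holds 4 although its promoter has the highest ratio of the set, 1.08, since the midpoint of its peak lies 905 bp upstream of the annotated TSS. The midpoints for Zfp46 and Zfp872 lie 1197 bp downstream and 473 bp upstream of the annotated TSS. For both the list counts from another TSS, with the midpoint 189 bp upstream and 8428 bp downstream of it. Their CpG ratios are those around the annotated TSS. The promoter of Zfp345 has a ratio of 0.169 and carries a peak of 1035 bp, not far from the 1345 bp of the peak at Zfp746, whose promoter has a ratio of 1.01. Of the 32-base words of the Zfp345 promoter, 63.2% recur elsewhere in mm9, so reads of another copy may be part of its peak.

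Peaks of Zfp genes lay nearer to a TSS than other peaks. The midpoint was within 1 kb of the assigned TSS for 285 of 499 Zfp peaks (57.1%, 95% interval 52.7 to 61.4%), against 44.9% of all peaks in the list and 44.6% (44.0 to 45.2%) of the peaks of other genes. The difference was made up at intermediate distances. Between 1 and 10 kb lay 44 Zfp peaks (8.82%, 6.63 to 11.6%) against 13.9% (13.4 to 14.3%) of other peaks, and between 10 and 50 kb lay 96 (19.2%, 16.0 to 22.9%) against 24.5% (24.0 to 25.0%). Beyond 100 kb the shares were 6.81% (4.92 to 9.37%) and 8.23% (7.90 to 8.57%), with overlapping intervals. Peaks near a TSS were centred slightly downstream of it, with a median offset of 42 bp (95% interval 19 to 73 bp) for Zfp genes and 62 bp (58 to 66 bp) for other genes.

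**Figure D1:**
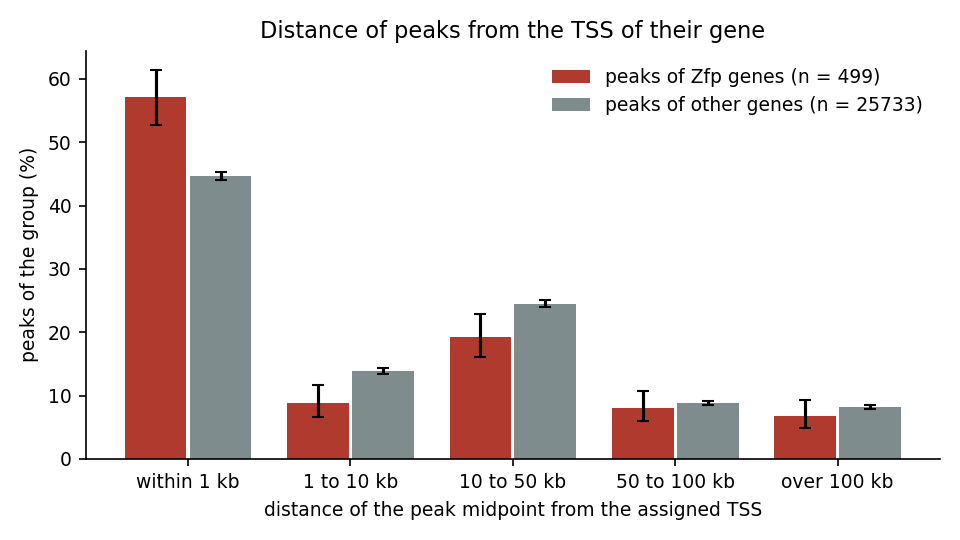
Share of peaks (%, y axis from 0) by distance of the midpoint from the assigned TSS (x axis, 5 classes) for the 499 peaks of Zfp genes and the 25733 peaks of other genes, with 95% Wilson intervals as error bars. Zfp peaks have the larger share within 1 kb and smaller shares from 1 to 50 kb.

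Most Zfp genes had 1 peak, at the promoter. A single peak was assigned to 215 of 314 genes (68.5%, against 60.8% of all genes with a peak), 2 peaks to 55 genes, 3 to 25, 4 to 10, 5 to 3, 6 to 4 and 10 to 2 genes. The mean was 1.59 peaks per gene, and 1.71 over all genes with a peak. Peaks only within 1 kb of the TSS were found at 198 genes (63.1%, 57.6 to 68.2%, against 45.2%, 44.4 to 46.0%, of other genes), peaks both within and beyond 1 kb at 84, and peaks only beyond 1 kb at 32 (10.2%, 7.31 to 14.0%, against 25.7%, 25.0 to 26.4%). At the upper end, 99 of the 499 peaks belonged to 19 genes with at least 4 each.

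Zfp promoter peaks were also narrower than those of other genes. Within 1 kb of the TSS the median width was 1151 bp (95% interval 1097 to 1194 bp, n = 285) for Zfp peaks and 1332 bp (1322 to 1343 bp, n = 11487) for other peaks. At CpG-rich promoters, where the ratio of observed to expected CpG reached 0.6 and GC made up 50% of bases or more, the medians were 1275 bp (1194 to 1333 bp) and 1413 bp (1403 to 1426 bp). At the remaining, CpG-poor promoters they were 1059 bp (1011 to 1113 bp) and 1162 bp (1146 to 1181 bp). Away from promoters the order was not the same, since beyond 10 kb the medians were 908 bp (840 to 946 bp) and 880 bp (873 to 886 bp), with overlapping intervals. Over all distances the medians were 1054 bp and 1081 bp. Width depends on the peak caller and on the depth of the replicate whose coordinates were kept, and their part in these differences was not tested.

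**Figure D2:**
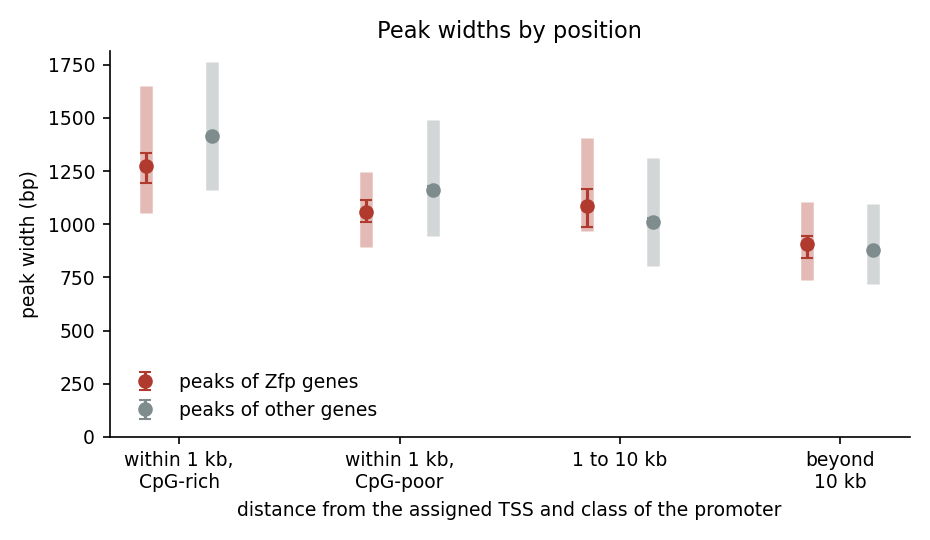
Peak width (bp, y axis from 0) by distance from the assigned TSS and CpG class of the promoter (x axis) for peaks of Zfp genes and of other genes, with points for medians, error bars for 95% intervals from order statistics and pale bars for the quartiles. The Zfp medians lie below the others at promoters, 1275 against 1413 bp and 1059 against 1162 bp, and not at the larger distances.

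At the level of genes, more Zfp promoters than other promoters overlapped a peak, and over 5 classes of CpG content the gap was widest at intermediate content. CpG-rich promoters were also more frequent among Zfp genes, 50.9% (45.6 to 56.2%) against 44.6% (43.9 to 45.2%) of other genes. A peak overlapped the promoter, the window reaching 500 bp both ways from the outermost protein coding TSS, at 254 of 338 annotated Zfp genes (75.1%, 70.3 to 79.5%), against 53.7% of all protein coding promoters. By symbol, 287 of the 338 genes (84.9%, 80.7 to 88.3%) had at least 1 assigned peak, against 57.0% of all protein coding genes. Of the 172 CpG-rich Zfp promoters 163 overlapped a peak (94.8%, 90.4 to 97.2%), against 89.4% of CpG-rich promoters overall. Of the 166 CpG-poor Zfp promoters 91 did (54.8%, 47.2 to 62.2%), against 24.8% of CpG-poor promoters overall. Zinc finger genes of other names had CpG-poor shares with intervals that overlap that of Zfp genes. The share was 47.0% (38.7 to 55.4%, 62 of 132) with 3 or more C2H2 matches and no KRAB match. With a KRAB match it was 40.9% (27.7 to 55.6%, 18 of 44).

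The 5 classes of CpG content were chosen after these values were seen. With a CpG ratio from 0.4 to 0.6, 67 of 71 Zfp promoters overlapped a peak (94.4%, 86.4 to 97.8%), against 64.2% (62.4 to 65.8%) of other promoters. From 0.2 to 0.4 the shares were 38.3% (25.8 to 52.6%, 18 of 47) and 17.0% (15.8 to 18.2%). Below 0.2 only 2 of 40 Zfp promoters overlapped a peak (5.00%, 1.38 to 16.5%, against 2.84%), and from 0.6 upward the shares were 90.9% and 96.6% for Zfp promoters against 86.6% and 90.4%. CpG-poor Zfp promoters with and without a peak had median ratios of 0.496 and 0.193, and those of other genes had nearly the same medians, 0.494 and 0.196.

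**Figure D3:**
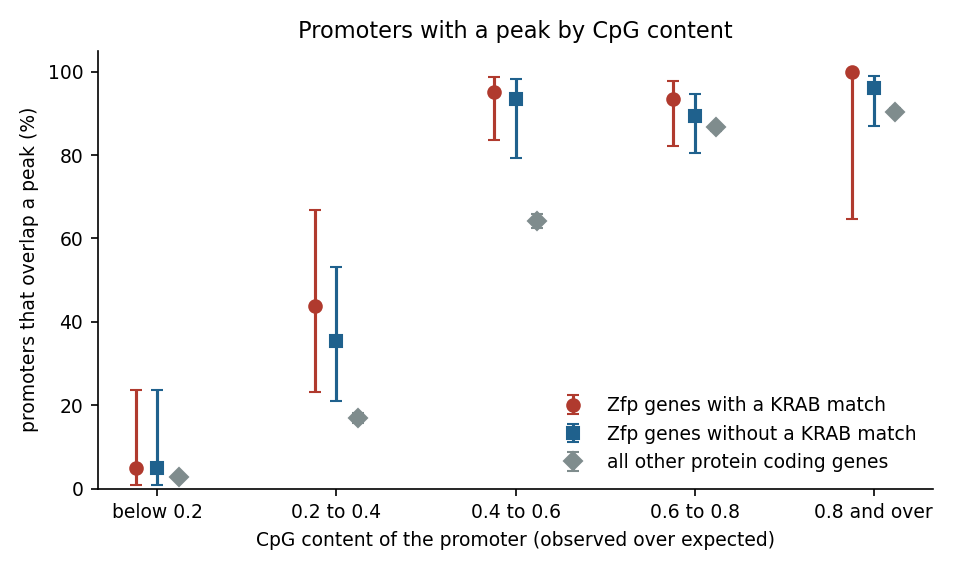
Share of promoters that overlap a peak (%, y axis) by observed over expected CpG within 500 bp of the TSS (x axis, 5 classes), for Zfp genes with a KRAB match, Zfp genes without one and all other protein coding genes, with 95% Wilson intervals as error bars. From 0.4 to 0.6 38 of 40 and 29 of 31 promoters of the Zfp groups overlap a peak, above the 64.2% of other genes.

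Reads of sequence that occurs more than once cannot be placed with certainty, and Zfp genes have many relatives, so the promoters were checked for repeats. The methods describe no cut on mapping quality, so a peak at a repeated promoter may hold reads of another copy, which was not tested. Over 50% of the 32-base words of the promoter recurred elsewhere in mm9 at 27 of the 338 annotated Zfp genes (7.99%, 5.55 to 11.4%), against 7.06% of other genes. A peak overlapped 13 of these 27 (48.1%, 30.7 to 66.0%) and 241 of the other 311 (77.5%, 72.5 to 81.8%), so the Zfp share was nearly the same with the repeated promoters left out. For other genes the shares were 10.6% (9.11 to 12.2%) of repeated and 56.6% (55.9 to 57.3%) of the remaining promoters, below the Zfp shares in both classes. The 27 peak genes that the annotation lacks were not checked for repeats, though their peaks are among the members. One of them, Zfp973, had 3 peaks, each within 1 kb of a listed TSS but together spanning 1160 kb. Its symbol thus stands at more than 1 place. A second gene starting on the opposite strand within 1 kb upstream was found at 16 Zfp genes (4.73%, 2.93 to 7.55%, against 7.38%, 7.04 to 7.73%, of other genes). Without those genes 239 of 322 Zfp promoters overlapped a peak (74.2%, 69.2 to 78.7%), against 50.6% (49.9 to 51.3%) of other promoters.

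Zfp genes with and without a KRAB match had peaks at like shares of promoters and differed in how many peaks lay elsewhere. By symbol, a peak was assigned to 114 of 128 genes with a KRAB match (89.1%, 82.5 to 93.4%) and to 173 of 210 without (82.4%, 76.7 to 86.9%), with overlapping intervals. A peak overlapped 95 of 128 promoters with a KRAB match (74.2%, 66.0 to 81.0%) and 159 of 210 without (75.7%, 69.5 to 81.0%). CpG-rich promoters were fewer in the KRAB set, 38.3% (30.3 to 46.9%) against 58.6% (51.8 to 65.0%), and 47 of its 79 CpG-poor promoters overlapped a peak (59.5%, 48.5 to 69.6%), against 44 of 87 (50.6%, 40.3 to 60.8%). KRAB genes with a peak had 1.37 peaks each, 67.9% of them within 1 kb, and the other genes had 1.74 each, 51.8% of them within 1 kb. At the TSS, the median peak width was 1091 bp (1000 to 1148 bp) for KRAB genes and 1238 bp (1181 to 1315 bp) for the others. Among annotated Zfp genes with 4 or more peaks, 2 had a KRAB match and 15 had none.

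The genes were concentrated on a few chromosomes and so were the peaks. Chromosome 7 held 85 of the 338 annotated Zfp genes and 110 Zfp peaks (22.0% of all Zfp peaks), chromosome 17 held 39 genes and 55 peaks, and chromosome 8 held 25 genes and 46 peaks. Zfp peaks made up 6.17% of all peaks on chromosome 7, but 0.305% on chromosome 1. A peak was assigned to 87.1% of the annotated Zfp genes on chromosome 7, 92.3% on chromosome 17 and 74.2% on chromosome 13.

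Clustered and isolated Zfp genes had a peak at similar shares, with overlapping intervals. Of the 338 genes, 178 had the TSS of another of these genes within 100 kb and fell into 49 runs, 31 of which had an assigned peak at every gene. Only 11 of the 49 runs held 5 or more genes. The number of complete runs was not set against that expected from the share of genes with a peak. Zfp genes missing from the annotation and zinc finger genes of other names were not counted as neighbours. A gene called isolated may thus stand near some of them. An assigned peak was present at 154 of the 178 clustered genes (86.5%, 80.7 to 90.8%) and at 133 of 160 isolated genes (83.1%, 76.6 to 88.1%). For CpG-poor promoters alone, a peak overlapped 62 of 100 in clusters (62.0%, 52.2 to 70.9%) and 29 of 66 isolated ones (43.9%, 32.6 to 55.9%), with overlapping intervals.

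The 3 longest runs differed in CpG content and in how many genes had a peak. The run from Zfp84 to Zfp146 on chromosome 7 (chr7:30553571-30954746) held 14 genes, 10 with a KRAB match, and 17 peaks, every one assigned to a Zfp gene. A peak was assigned to 13 of its genes, and Zfp146 had none although its promoter is CpG-rich. The 12 peaks within 1 kb of a TSS were 775 to 1882 bp wide with a median of 1169 bp, the widest at Zfp566 and the narrowest at Zfp14. Zfp568 in this run, needed in the mouse embryo to keep the placental transcript of Igf2 silent, had a peak of 1608 bp 290 bp upstream of its TSS and a second of 733 bp in an intron, 10095 bp downstream.

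The run from Zfp712 to Zfp748 on chromosome 13 (chr13:67162106-67654065) also held 14 genes, 10 with a KRAB match, and its median promoter CpG ratio was 0.369, against 0.588 in the run on chromosome 7. A peak was assigned to 10 genes, and each of these peaks lay within 1 kb of its TSS. They were 749 to 1235 bp wide with a median of 866.5 bp. Zfp759, Zfp953, Zfp429 and Zfp459 had no peak, and the share of recurring 32-base words in their promoters was 9.90%, 2.47%, 28.0% and 39.7%. Zfp708, reported in stem cells to bind a retroelement, had a peak of 870 bp 198 bp downstream of the listed TSS.

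The run from Zfp180 to Zfp94 on chromosome 7 (chr7:24866943-25101685) held 10 genes without a KRAB match by the strict pattern. A peak was assigned to 7 of them, and Zfp180, Zfp111 and Zfp109 had none. The 7 peaks within 1 kb of a TSS were 652 bp (Zfp108) to 1714 bp (Zfp112) wide. Zfp61 had a second peak of 690 bp in a coding exon, 11775 bp downstream of its TSS.

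**Figure D4:**
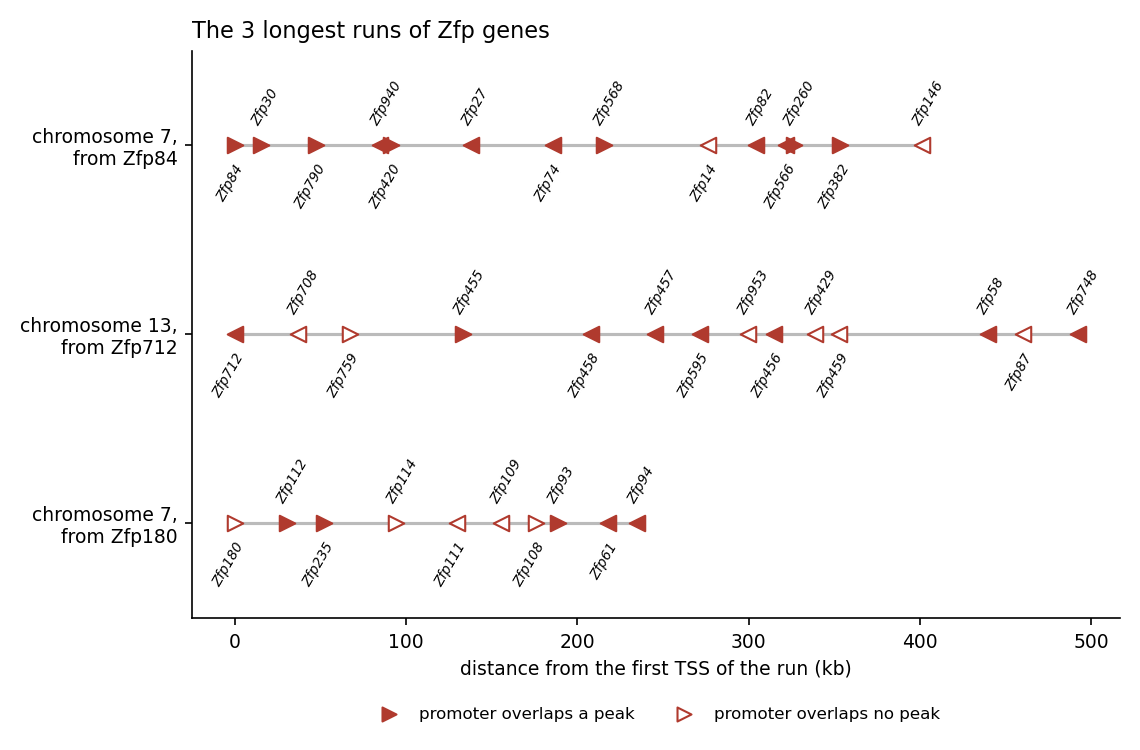
The 3 longest runs of Zfp genes, each a row, with the TSS of every gene placed by its distance from the first TSS of the run (kb, x axis). Triangles point in the direction of transcription and are filled where the promoter overlaps a peak, at 12 of 14, 8 of 14 and 5 of 10 genes from top to bottom.

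Letters of known DNA-binding factors were then counted within 500 bp of each TSS on both strands, which describes sequence and not binding. Among promoters that overlapped a peak, CCGGAAG, the core bound by ETS factors, was present in 90 of 254 for Zfp genes (35.4%) and in 28.7% for all genes. GCATGCGC of NRF1 was present in 10.6% and 7.47%. GGGCGG of the SP and KLF factors was less frequent in Zfp promoters with a peak (78.3% against 88.2%), and CTCGCGAG of ZBTB33 was found in 3 of 254 (1.18% against 3.27%). AAGATGGC of YY1 was present in 10.2% and 9.29%, and CCACNAGGG of CTCF in 5.91% and 5.24%. Among letters of heart factors, AGGTGTGA of T-box factors was present in 10 of 254 Zfp promoters with a peak (3.94%) and in 2.66% of all promoters with a peak, and at CpG-rich promoters with a peak in 4.91% and 2.31%. The shares were 23.6% and 20.3% for AGATAA of GATA factors, 34.3% and 33.5% for GGAATG of TEAD factors, and 6.69% and 7.73% for CACTTGA of NKX2-5. At CpG-rich promoters with a peak they were, in that order, 20.2% and 17.3%, 30.1% and 31.0%, and 6.13% and 6.65%. CpG-rich promoters made up 163 of the 254 Zfp promoters with a peak and 8866 of 11922 over all genes. Among these CpG-rich promoters the shares were 41.7% and 31.6% for ETS, 9.82% and 8.58% for NRF1, and 89.0% and 93.7% for SP and KLF. They were 0.613% and 4.09% for ZBTB33, 12.3% and 10.6% for YY1, and 6.13% and 5.02% for CTCF. The part of CpG content in the motif differences was not tested. The letters of no motif lie within those of another, though matches may overlap in a promoter.

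The largest ratio to the background was that of ACTACAATT, the core read by ZNF143, which was present in 13 of 338 Zfp promoters (3.85%) and in 0.846% of all protein coding promoters. In 9 of the 13 the match was followed by CCC, as in the longer site of that factor, a split made after the matches were seen. These 9 lay 8 to 80 bp from the TSS, 7 on the strand opposite to the gene, and 8 of them inside a peak. The other 4 lay 320 to 453 bp away, with 1 inside a peak. The longer match was present in 2.66% (1.41 to 4.98%) of Zfp promoters and 0.466% (0.384 to 0.566%) of other promoters. Of the 111 protein coding promoters that hold it, 102 overlapped a peak (91.9%), against 53.7% of all protein coding promoters. Among Zfp promoters, ACTACAATT itself was present in 10 of 254 with a peak (3.94%) and in 3 of 84 without (3.57%). Matches of genes named in the lists or runs, apart from that of Zfp455, are shown in 49 bases of mm9 on the strand of the match, with the match in capitals.
Zfp93: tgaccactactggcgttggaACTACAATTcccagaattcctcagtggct
Zfp235: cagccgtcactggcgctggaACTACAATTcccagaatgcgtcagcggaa
Zfp180: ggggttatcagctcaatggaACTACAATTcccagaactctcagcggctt
Zfp58: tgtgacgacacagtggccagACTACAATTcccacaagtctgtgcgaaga
Zfp462: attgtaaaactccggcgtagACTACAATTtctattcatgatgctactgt

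They lie at chr7:25055348-25055396 for Zfp93, chr7:24919140-24919188 for Zfp235, chr7:24866876-24866924 for Zfp180 and chr4:54957545-54957593 for Zfp462, on the minus strand, and at chr13:67601458-67601506 on the plus strand for Zfp58. Zfp93, Zfp235 and Zfp180 are neighbours in 1 run and their stretches resemble each other beyond the match. The matches of Zfp93 and Zfp235 lay inside a peak, 67 and 29 bp upstream of the TSS, and that of Zfp180, 43 bp upstream, did not. Zfp58 carried its match 9 bp downstream of the TSS inside a peak of 749 bp. The match of Zfp462, 351 bp upstream, lacks the CCC, and that of Zfp455, 453 bp upstream, lay outside the peak of its promoter.

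The share of peaks in coding exons of their own gene was below that of other peaks by both rules used, and its size depended on the rule. The midpoint lay in a coding exon of the assigned gene for 20 of 499 Zfp peaks (4.01%, 2.61 to 6.11%), against 6.99% (6.69 to 7.31%) of other peaks. Any overlap with such an exon was found for 112 Zfp peaks (22.4%, 19.0 to 26.3%), against 30.6% (30.0 to 31.1%). Peaks of symbols that the annotation lacks, among them those of 27 Zfp genes, could not match but stayed in the totals. The part of such peaks in the difference was not tested. Of the 20 with the midpoint inside, 15 were promoter peaks of genes whose coding sequence begins near the TSS, such as Zfp292, Zfp593, Zfp784, Zfp748 and Zfp598. The remaining 5 lay at Zfp697 (1758 bp wide, 45358 bp downstream), Zfp777 (909 bp, 23095 bp downstream), Zfp61, Zfp467 (1598 bp, 6342 bp downstream) and Zfp219 (1097 bp, 5422 bp downstream).

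Of the 214 Zfp peaks beyond 1 kb of the assigned TSS, 122 were intergenic (57.0%, 50.3 to 63.5%, against 49.3%, 48.5 to 50.1%, of such peaks of other genes) and 61 were in introns (28.5%, 22.9 to 34.9%, against 39.6%, 38.8 to 40.4%). The intron was one of the assigned gene for 41 of the 61. A further 17 lay within 1 kb of some other protein coding TSS of the annotation, a second TSS of the gene or that of a neighbour.

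The 2 Zfp genes with most peaks encode developmental regulators, and neither has the TSS of another annotated Zfp gene within 100 kb. Zfp423, a factor with many fingers that acts in BMP and retinoic acid signalling and in fat cell and cerebellar development, had 10 peaks with a summed width of 15624 bp over 297.1 kb of chromosome 8. Its widest peak (chr8:90483823-90487351, 3529 bp) had its midpoint 2092 bp upstream of the listed TSS and overlapped the annotated promoter, and 7 of the 10 peaks lay in introns. The middle of that peak is rich in CpG, as 120 bases of the plus strand of mm9 (chr8:90485527-90485646) show, with each of the 12 CpGs in capitals.
Zfp423: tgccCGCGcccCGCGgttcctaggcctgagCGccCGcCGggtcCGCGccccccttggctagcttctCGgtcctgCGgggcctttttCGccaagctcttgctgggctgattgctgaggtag

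The intronic peaks of Zfp423 were 992 to 2471 bp wide. The widest of them, 2471 bp at chr8:90353918-90356388, is listed 26814 bp upstream of a TSS although it lies inside the gene, so its distance was measured from another, internal TSS. A further wide peak, of 1719 bp, lay 8454 bp upstream of the gene.

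Zfp608, a cofactor-like relative of the Drosophila gene scribbler, also had 10 peaks, spread over 722.3 kb of chromosome 18. They were 642 to 1619 bp wide. The widest of the 10 was the farthest of all Zfp peaks from its TSS, 559209 bp upstream, and others lay 385671 and 143763 bp upstream. The nearest was 2478 bp upstream, so no peak midpoint of this gene fell within 1 kb of the listed TSS. That peak did overlap the annotated promoter. Its paralogue Zfp609 had 4 peaks within 77.89 kb, with 2114 bp at the TSS and 541 bp, among the narrowest of all, 20873 bp upstream.

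Among genes with 6 peaks, Zfp536, a repressor of neuronal differentiation, had 1 within 1 kb of its TSS and 4 downstream, the farthest 449416 bp away in the untranslated region of an exon. Zfp644 had 1711 bp covered at its TSS and 4 upstream, the widest of which, 1698 bp, lay 105249 bp away. Zfp706, a small protein that restrains self-renewal of embryonic stem cells, had 1559 bp at its TSS and 5 intergenic peaks from 27290 bp to 92898 bp away. Zfp369 had 1567 bp at its TSS and 4 peaks downstream, 3 of them in introns of a neighbouring gene model. Zfp868 and Zfp619, with 5 peaks each, had every distal peak downstream. Zfp462, a regulator of heterochromatin and of neural differentiation of stem cells, had 5 peaks, of which the farthest, 477678 bp upstream, was 481 bp wide.

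**Figure D5:**
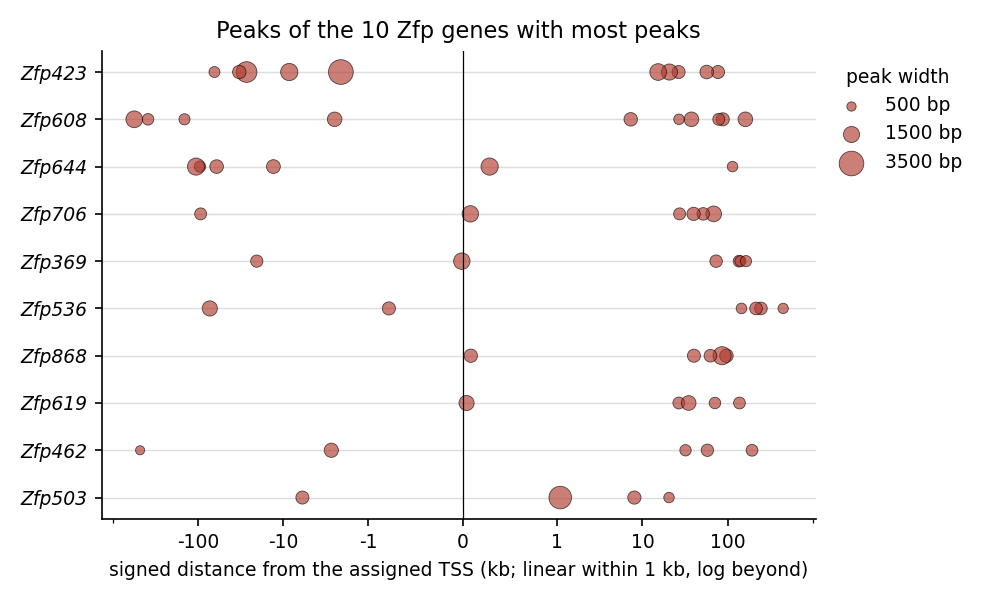
Signed distance of each peak from the assigned TSS (kb, x axis, linear within 1 kb and logarithmic beyond) for the 10 Zfp genes with most peaks (ties, among them 10 genes with 4 peaks, taken by summed width), 1 row a gene, each circle a peak with its area proportional to the peak width. Zfp423, Zfp608, Zfp462 and Zfp503 have no peak midpoint within 1 kb of the listed TSS, though a peak overlaps the annotated promoter of each.

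Apart from those of Zfp423, the 10 widest Zfp peaks lay at or near the TSS of genes with CpG-rich promoters. The widest of all, 4615 bp, covered the promoter of Zfp703 (chr8:28086250-28090864), a corepressor gene of epithelial and neural crest cells that belongs with Zfp503 to the NET family, whose members have no tandem fingers and which gave no C2H2 match. Zfp503 had 4 peaks, the widest of 2935 bp with its midpoint 1081 bp downstream of the TSS. Zfp467 followed with 3077 bp, Zfp664 with 2592 bp, Zfp91 with 2575 bp, Zfp367 with 2500 bp, Zfp768 with 2350 bp and Zfp236 with 2299 bp. The narrowest were 395 bp in an intron of Zfp532, 401 bp in an intron of Zfp277, the distal peaks of Zfp462 and Zfp609, and 565 bp upstream of Zfp638.

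In the list of developmental regulators, 14 of 15 genes had a peak, 58 peaks in all, and 13 of 15 promoters overlapped one. The shares over all annotated Zfp genes were 84.9% and 75.1%, and over all protein coding genes 57.0% and 53.7%, and the counts of the following Zfp lists are to be read against the same shares. Zfp521, which acts in blood and neural progenitors, had 3 peaks, one of them of 920 bp 122 bp from its TSS. Zfp516 had 2156 bp at its TSS and Zfp407 had 1808 bp, with a pair of intronic peaks 189448 and 199520 bp downstream. Zfp217 had 1724 bp at the listed TSS, Zfp219 1998 bp, Zfp335, a gene needed for neural progenitors, 2261 bp, and Zfp488, an oligodendrocyte factor, a single peak of 718 bp. Zfp238, the remaining gene, is listed under its newer symbol Zbtb18, with 1 peak.

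In the list of embryonic stem cell and early embryo genes, 4 of 5 had a peak, near the share over all Zfp genes. Zfp281, a factor of the exit from naive pluripotency, had 1857 bp at its TSS and 3 intergenic peaks of 606 to 955 bp. Zfp296 had a single peak of 1984 bp and Zfp143, the mouse ZNF143, a single peak of 1805 bp. Zfp352, expressed in the preimplantation embryo, had none, and its promoter has a CpG ratio of 0.152.

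In the list of regulators of imprints and retroelements, 6 of 7 genes had a peak, 9 in all, again near the 84.9% of all Zfp genes. Zfp57, which keeps methylation at imprinted regions, had 1440 bp 324 bp downstream of its TSS and 899 bp 3992 bp upstream. Zfp445, which shares that role, had 734 bp at its TSS and 1052 bp 28102 bp downstream. Zfp809, which silences murine leukaemia proviruses in embryonic cells, had 1253 bp. Zfp932 had 1008 bp, but 54.4% of the 32-base words of its promoter recur, so reads of another copy may be part of that peak. Zfp819 had no peak. By the window around the 5′-most annotated TSS, 3 of the 7 promoters overlapped a peak, since the listed TSSs of Zfp57, Zfp445 and Zfp708 lie elsewhere.

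In the list of RNA, ribosome and spindle genes, 7 of 8 had a peak, 8 in all and mostly at the promoter, which is also near the share over all Zfp genes. The exception was Zfp638, whose only peak lay 5851 bp upstream of its TSS. The promoter peaks were 968 bp at Zfp106, 852 bp at Zfp207, a spindle assembly gene, 1315 bp at Zfp346, which encodes a protein binding double-stranded RNA, 1237 bp at Zfp598, a sensor of collided ribosomes, and 1324 bp at Zfp622, a ribosome maturation factor. Zfp91 had a second peak of 613 bp 9893 bp downstream. Zfp830 had none by symbol, but its promoter overlapped a peak listed for Cct6b, which starts 24 bp away on the opposite strand.

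For 51 of the 338 annotated Zfp genes no peak was listed under the Zfp symbol. Of these, 10 had peaks under the symbol RefSeq now gives them, 11 peaks in all, which brings the genes with a peak to 297 (87.9%), and 18 had a promoter that overlapped a peak listed for another symbol. Zfp161, Zfp191, Zfp192, Zfp259 and Zfp828 are in both sets, since the peak at their promoter is listed under their own newer symbol. Neither held for 28 genes. Of those 28, 22 had CpG-poor and 6 CpG-rich promoters, 11 had a KRAB match, and at 4 over 50% of the 32-base words of the promoter recurred. The 87.9% has no counterpart over other genes, whose symbols may also have changed. By RefSeq symbols alone, a peak was listed for 85.2% of protein coding Zfp genes and 60.6% of all protein coding genes.

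The partners of KRAB proteins, which are not Zfp genes, had peaks at 13 of 16 genes, with 22 peaks, against 57.0% of all protein coding genes with a peak. Trim28 itself had 2942 bp at its TSS, Setdb1, the histone H3 lysine 9 methyltransferase it recruits, 965 bp, and Dnmt1 and Uhrf1, which maintain DNA methylation, 2378 and 2022 bp. Cbx3, Chd3 and Daxx had no peak under their symbols, but the promoter of Daxx overlapped a peak listed for another symbol. Marker genes did not by themselves identify the cells in this list, since peaks were assigned to 7 of 8 cardiac progenitor markers (30 peaks), 3 of 4 pluripotency (12 peaks), 4 of 5 blood and endothelial (9 peaks), 3 of 3 neural (11 peaks) and 3 of 4 fibroblast markers (8 peaks). Isl1 of the cardiac list and Klf4 of the pluripotency list had 8 peaks each. Hand2, Pou5f1, Gata1 and Pdgfrb had none.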

How the data were processed

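Per the study's methods, nuclei of CPCs from independent differentiations were transposed with Tn5, and reads were mapped to mm9 with bowtie2, filtered with samtools and Picard (version 1.136 per the labels), and called as peaks per replicate with MACS14 at a fixed shift. Blacklisted peaks were dropped, peaks shared by both replicates kept with bedtools (version 2.15 per the labels), and TSSs assigned with HOMER, as described for ChIP-Seq. The deposited values are peak starts and ends and a signed distance in bp. No other Tn5 correction is described.

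The deposited intervals were counted once each and set against GENCODE vM1 on NCBIM37, which is mm9, with scripts in Python 3.11.15 (scipy 1.17.1) that were tested on simulated data. Where several gene IDs share a name, the longest gene was kept. RefSeq tables (GRCm38.p6) gave symbols only. The KRAB pattern was searched in every annotated protein of a gene. Named genes were those with most peaks, the widest, narrowest and farthest peaks, listed genes, the 3 longest runs, peaks in coding exons and extremes of CpG content; others were named after their values were seen. Members and lists were chosen with earlier results of these data known. Alternatives covered repeat lines, peak width, symbols, TSS and promoter windows, CpG, KRAB and cluster thresholds, and exon overlap.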

Additional observations from a re-analysis of the deposited data

How the results depend on the processing

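Of 45 alternative settings over 12 results, 26 stayed within the counting interval (counts within 1.5 times) and 19 moved. Most moves came from keeping only peaks wider than the median of all peaks. That left 236 Zfp peaks, a share within 1 kb of 70.3% (66.5% of all such peaks), a median width of 1323.5 bp and 1.23 peaks per gene. The share of genes with a peak was then 53.6% for all annotated Zfp genes (40.6% of all protein coding genes), 46.1% for KRAB, 58.1% for other, 51.1% for clustered and 56.2% for isolated Zfp genes, and a peak overlapped 47.9% of Zfp promoters and 70.3% of CpG-rich ones. The order of KRAB and other genes, and of clustered and isolated genes, was thus the opposite of that with all peaks by symbol (89.1% against 82.4%, and 86.5% against 83.1%). Counting a peak only within 500 bp of the 5′-most TSS gave 75.1% of all, 74.2% of KRAB, 75.7% of other, 76.4% of clustered and 73.8% of isolated Zfp genes, which also turned the order of KRAB and other genes. The share of peaks within 10 kb in place of 1 kb was 65.9% (58.6% of all peaks), the stricter CpG threshold gave 97.3%, and any overlap with a coding exon gave 22.4% (30.4% of all peaks). No share over all promoters stands beside this 97.3%, nor beside the 47.9% and 70.3% of promoters that overlapped a wide peak. These values do not show how Zfp promoters compare with others under those settings. Counting current RefSeq symbols (87.9%, done for Zfp genes alone) and leaving out repeated promoters (77.5%) were chosen after seeing the data. The causes were not tested.

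No paired analysis was possible because the list has 1 group and no value for a single replicate, and for that reason no run left out a replicate. Depth is unknown, so peaks missed at low depth cannot be told apart from closed chromatin. Both samples are of 1 day, and no other cell state was compared.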

Other observations

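Zinc finger genes outside the Zfp names were counted in the same way. Of 52 protein coding genes with a KRAB match and another name, 25 had a promoter that overlapped a peak (48.1%, 95% Wilson interval 35.1 to 61.3%), and 20 had an assigned peak (38.5%, 26.5 to 52.0%). Their promoters were CpG-rich in 15.4% (8.01 to 27.5%), and over 50% of the 32-base words recurred in 19 of them (36.5%, 24.8 to 50.1%). With those 19 left out, 20 of 33 overlapped a peak (60.6%, 43.7 to 75.3%). Of 273 genes with 3 or more C2H2 matches, another name and no KRAB match, 184 had a promoter that overlapped a peak (67.4%, 61.6 to 72.7%). With repeated promoters left out, 154 of 216 did (71.3%, 64.9 to 76.9%), against 77.5% (72.5 to 81.8%) of Zfp promoters. An assigned peak was then present at 180 of the 216 (83.3%, 77.8 to 87.7%), against 85.5% (81.2 to 89.0%) of Zfp genes.

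Zfp symbols with a letter after the digits, which were not counted above, held 38 peaks. Zfp36, an RNA-binding regulator of messenger stability, had 1 peak, and Zfp42, the pluripotency gene also called Rex1, had 2. Among the 16 Zfp genes with an opposite start within 1 kb, Zfp758 and Zfp944 start 53 bp apart and Zfp942 and Zfp943 start 101 bp apart, and in each pair the peak is listed for 1 gene alone.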
